A study of Mus musculus with 18 samples.

Results

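Newly made RNA was compared between 8 h and 2 h of ERK pathway activation in mouse embryonic stem cells that lacked Med24. The comparison used the 6 libraries labelled as knockout at these times, of 18 libraries in all, chosen by their label alone and read across all genes. Of 25897 gene symbols in the table, 14128 had enough counts to be tested. The cells were E14tg2a, a line of 129SV background, in which Med24 had been knocked out and a FLAG-Med24 cDNA had been placed under a TET-regulated promoter. They also carried cRAF-ErT2, a RAF kinase fused to a hormone-binding domain, which 4-hydroxytamoxifen (4OHT) switches on, together with the RTTA transactivator that doxycycline needs to drive the cDNA.

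Each group held 3 libraries, one each from clones A, B and C. Knockout cells, labelled KO, had been kept without doxycycline for several passages and were untreated (0 h) or given 250 nM 4OHT for 2 h or 8 h. Rescued cells, labelled WT, were the same cells kept with 500 nM doxycycline and taken at the same 3 times. All 18 cultures were grown in serum with LIF and 2 µM Chir99021, a GSK3 inhibitor, and for the last 24 h before treatment in serum with LIF and 250 nM PD173074, an FGF receptor inhibitor. Ethynyl uridine at 5 mM marked RNA made in the last 15 min, which was then captured and sequenced. 4OHT acts on cRAF-ErT2, which is not the cells' own RAF, and the part of ligands in the serum was not tested. Doxycycline and Med24 always changed together, so their effects cannot be told apart. Clones with one letter were not stated to be separate experiments, and the P values measure only the spread between these libraries.

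MED24 is a subunit of Mediator, the complex that passes signals from transcription factors bound at enhancers to RNA polymerase II at promoters. ERK signalling first switches on immediate early genes, which need no new protein, and through their products a later set of genes. It also raises its own inhibitors, among them phosphatases and Sprouty proteins. In embryonic stem cells ERK activity favours exit from naive pluripotency towards the formative and primed states of the epiblast.

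Library totals were 8081651, 8467362 and 9565699 counts at 2 h and 9240314, 7317545 and 6691177 counts at 8 h, in clones A, B and C. Values are CPM (counts scaled to a common library size), and 3 counts in a library of the series correspond to 0.196 to 0.629 CPM. A set of 13 abundant genes, among them Cdk8 and Lars2, took 34.2% of all counts in the 2 h library of clone A. They took 36.4% and 44.0% in the 8 h libraries of clones B and C, and 17.7% to 24.0% in the other 15. None of the 13 passed the test between 8 h and 2 h, and their values are read no further. No spike-in is named in the labels, so every change is a change in a gene's share of its library. In bulk RNA, fewer cells of a type and less RNA per cell cannot be told apart.

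Med24 (GRCm38 chromosome 11, 98704591 to 98729435, minus strand) was low in all knockout libraries, with 49.2, 43.1 and 47.3 CPM at 2 h and 41.1, 42.8 and 34.0 CPM at 8 h. The log2 fold change, always 8 h against 2 h unless stated otherwise, was -0.23 ± 0.087 (SE, n = 3 per group, adjusted p = 0.0262), a call lost under 6 of 14 alternatives. Here and below, p is from edgeR's quasi-likelihood test with Benjamini-Hochberg adjustment over all genes tested, and a call means an adjusted p under 0.05. Rescued cells held 1635 CPM at 2 h and 404 CPM at 8 h, with cDNA and endogenous reads counted together.

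Between 2 h and 8 h, 4139 genes rose in knockout cells (29.3% of those tested) and 3918 fell (27.7%). With libraries scaled by total count alone 2619 rose and 3370 fell. More than 2-fold changes were found in 1094 of the genes that rose and 794 of those that fell. The median log2 change over all tested genes was 0.03. The 2 groups of libraries did not overlap in 8247 genes (58.4%). Principal components of the 6 libraries were computed only on the genes that varied most over all 18 libraries. The first held 83.9% of the variance of these genes and parted the 2 times, and the second held 5.33%. That choice favours genes that differ between the groups. With well over 50% of genes called, a call alone says little, and the size of a change is given throughout.

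**Figure D1:**
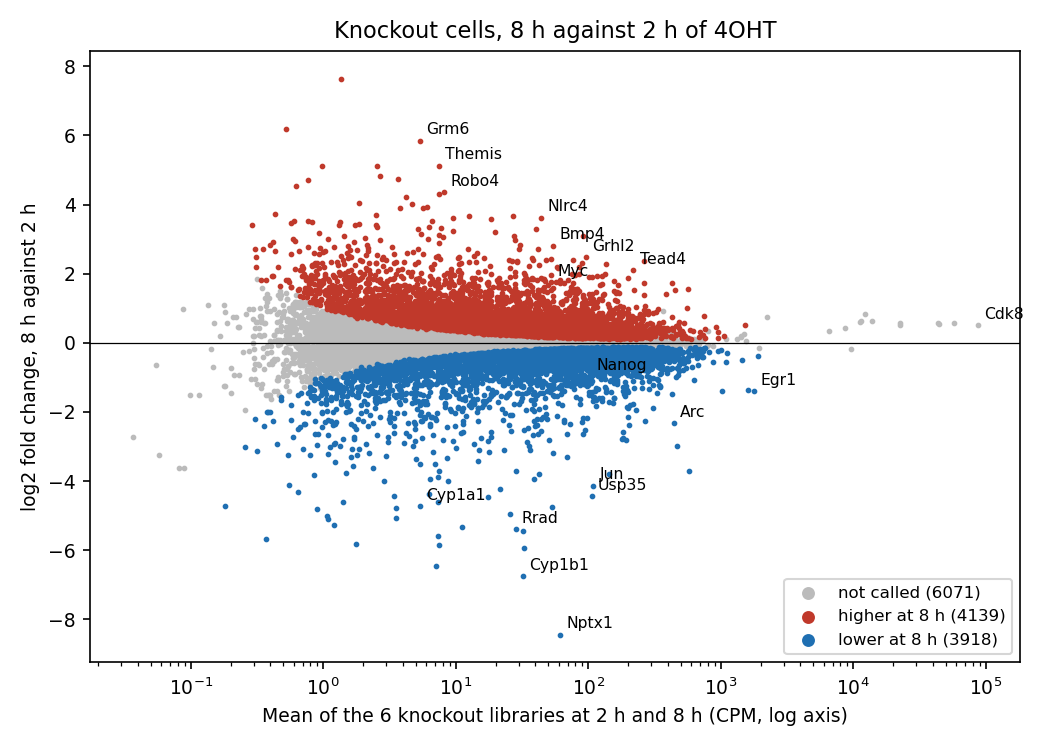
Log2 fold change of each of the 14128 tested genes in knockout cells, 8 h against 2 h of 4OHT, against its mean level in the 6 libraries in CPM on a log axis. Red points are the 4139 genes called higher, blue points the 3918 called lower and grey points the rest, and the 13 abundant genes, among them Cdk8, were not called.

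The largest falls were mostly in genes with a peak at 2 h, low both before 4OHT and at 8 h. Nptx1, which encodes a neuronal pentraxin (chromosome 11, 119538719 to 119547753), had 93.7, 139 and 134 CPM at 2 h and 0.202, 0.499 and 0.419 CPM at 8 h. It fell by 8.44 ± 0.30 on the log2 scale (adjusted p = 2.75e-14), from a mean of 122 CPM to 0.373 CPM, with 0.782 CPM at 0 h. Cyp1b1, a cytochrome P450 gene and a known target of the aryl hydrocarbon receptor, stood at 55.7, 65.9 and 70.2 CPM at 2 h and at 0.504, 0.499 and 0.839 CPM at 8 h. Its relative Cyp1a1, a target of the same receptor, went from a mean of 10.4 CPM to 0.385 CPM. Both P450 genes ended below their level before 4OHT, which was 24.6 CPM for Cyp1b1 and 4.41 CPM for Cyp1a1. Rrad, which encodes a small GTPase, stood at 0.306 CPM at 0 h, 55.0 CPM at 2 h and 1.52 CPM at 8 h. Iqsec3, an exchange factor gene for ARF GTPases, followed the same course with 0.328, 49.9 and 1.68 CPM, and the collagen gene Col26a1 with 1.52, 63.4 and 1.41 CPM. Ccno, which encodes a cyclin-like protein, fell from 21.9 to 0.479 CPM. Sec14l5 fell from 65.05 to 1.00 CPM, Scrt1, which encodes a neural zinc finger repressor, from 14.6 to 0.277 CPM, and Cxxc4, an inhibitor of Wnt signalling, from 14.52 to 0.318 CPM. Sec14l3 had 343 counts over the 3 libraries at 2 h and 3 at 8 h, a ratio of 98.0-fold with an exact 95% counting interval of 33.3 to 478. In each of these genes no library at 8 h reached the lowest library at 2 h, which the rule that chose them required.

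The largest rises were chosen by the same rule from genes with a mean of at least 5 CPM, which favours low levels at 2 h. Grm6, a glutamate receptor gene (chromosome 11, 50850685 to 50866208), had 0.153, 0.118 and 0.219 CPM at 2 h and 9.68, 10.2 and 11.9 CPM at 8 h (log2 fold change 5.85 ± 0.35, adjusted p = 1.34e-19). Themis, best known from T cell selection, went from 0.305, 0.591 and 0.329 CPM to 18.3, 13.7 and 11.3 CPM. The chemokine gene Ccl20 was at 0 at 0 h, 0.701 CPM at 2 h and 14.2 CPM at 8 h. Nlrc4, an inflammasome gene, had 6.41, 7.08 and 6.46 CPM at 2 h and 86.2, 79.4 and 80.3 CPM at 8 h. Robo4 and Nos3, a guidance receptor gene and the endothelial nitric oxide synthase gene, rose to 15.7 and 23.4 CPM from 0.718 and 1.83 CPM. Aldh1a3, whose enzyme makes retinoic acid, rose by 3.89 ± 0.26 on the log2 scale to 10.6 CPM. Cass4 (3.92), Ankrd33b (3.67), Plb1 (3.61), Ccdc3 (3.59) and Mill2 (3.52) completed the 12, in log2 change. By the same rule, no library of one time overlapped the other.

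Of 31 tested immediate early genes 17 fell (54.8%) and 8 rose (25.8%), with a median log2 change of -0.42. Among all tested genes 27.7% fell and 29.3% rose, so only the share of falls lay above the background. Their summed level was 5699 to 6000 CPM at 2 h and 3003 to 3394 CPM at 8 h. Transcription factor genes (Jun, Fos, Egr2) and the synaptic gene Arc were among those that fell.

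Jun, which encodes a subunit of the AP-1 transcription factor (chromosome 4, 95049034 to 95052222), had 205, 203 and 212 CPM at 2 h and 11.3, 11.0 and 13.8 CPM at 8 h. It fell by 4.13 ± 0.089 on the log2 scale (adjusted p = 8.13e-38), and its 8 h mean of 12.04 CPM lay beside 17.2 CPM at 0 h. Fos, the partner of JUN in AP-1, had 53.4, 52.3 and 61.0 CPM at 2 h and 10.4, 7.49 and 10.9 CPM at 8 h (-2.53 ± 0.12, adjusted p = 1.07e-23), still above its 2.82 CPM at 0 h. Fosb fell by 1.73, Fosl2 by 1.36 and Jund by 1.09 on the log2 scale. Junb did not follow: it had 150, 157 and 153 CPM at 2 h and 153, 158 and 168 CPM at 8 h (0.05 ± 0.060, adjusted p = 0.465), and the libraries overlapped. Fosl1 rose by 0.51 ± 0.084, from 36.6 to 52.2 CPM. Of the AP-1 genes, then, 5 fell, Fosl1 rose and Junb was not called.

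Egr1, which encodes a zinc finger activator, kept a high level, with 2622, 2526 and 2681 CPM at 2 h and 1187, 882 and 893 CPM at 8 h against a mean of 16.4 CPM at 0 h. It fell by 1.40 ± 0.093 on the log2 scale (adjusted p = 2.68e-10). Egr3 fell by 2.15, from 75.2 to 16.6 CPM, and Egr2 by 2.85, from 8.80 to 1.09 CPM. Nab1 and Nab2, whose proteins bind EGR factors and repress their targets, had 307, 325 and 307 CPM and 306, 314 and 343 CPM at 2 h. At 8 h they had 49.2, 51.4 and 57.9 CPM and 46.5, 40.6 and 56.4 CPM, log2 changes of -2.58 ± 0.061 and -2.76 ± 0.088 (adjusted p = 5.61e-36 and 2.11e-18). Corepressor and activator transcripts of the EGR group both fell, without overlap between the times. Arc, a synaptic plasticity gene, fell by 2.31 from 738 to 149 CPM, and Maff, a small MAF factor gene, by 1.79.

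Other immediate early genes were higher at 8 h than at 2 h. Myc, a growth regulator (chromosome 15, 61985391 to 61990374), had 22.3, 24.1 and 24.8 CPM at 2 h and 73.7, 75.6 and 93.5 CPM at 8 h (1.75 ± 0.088, adjusted p = 7.18e-23). Trib1, a pseudokinase gene, rose by 1.34 to 61.6 CPM and the orphan receptor gene Nr4a2 by 1.47 to 24.2 CPM, which was near its 20.4 CPM at 0 h. Ier5, Mcl1, Plk3 and Klf6 rose by 0.65, 0.46, 0.31 and 0.26. Ier2 (-0.04), Ier3 (0.33), Nr4a1 (0.09), Atf3 (-0.31) and Gadd45b (-0.41) did not pass the test. Egr4, Nr4a3 and Csrnp1 had too few counts to be tested. Csrnp1 is listed at 0 in every library, as are genes that every cell uses, such as Rpl13 and Cox4i1, so a listed 0 is not read as absence. Plk3 and Klf6 were not called with libraries scaled by total count alone, nor Plk3 without the 3 libraries of high abundant-gene share.

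**Figure D2:**
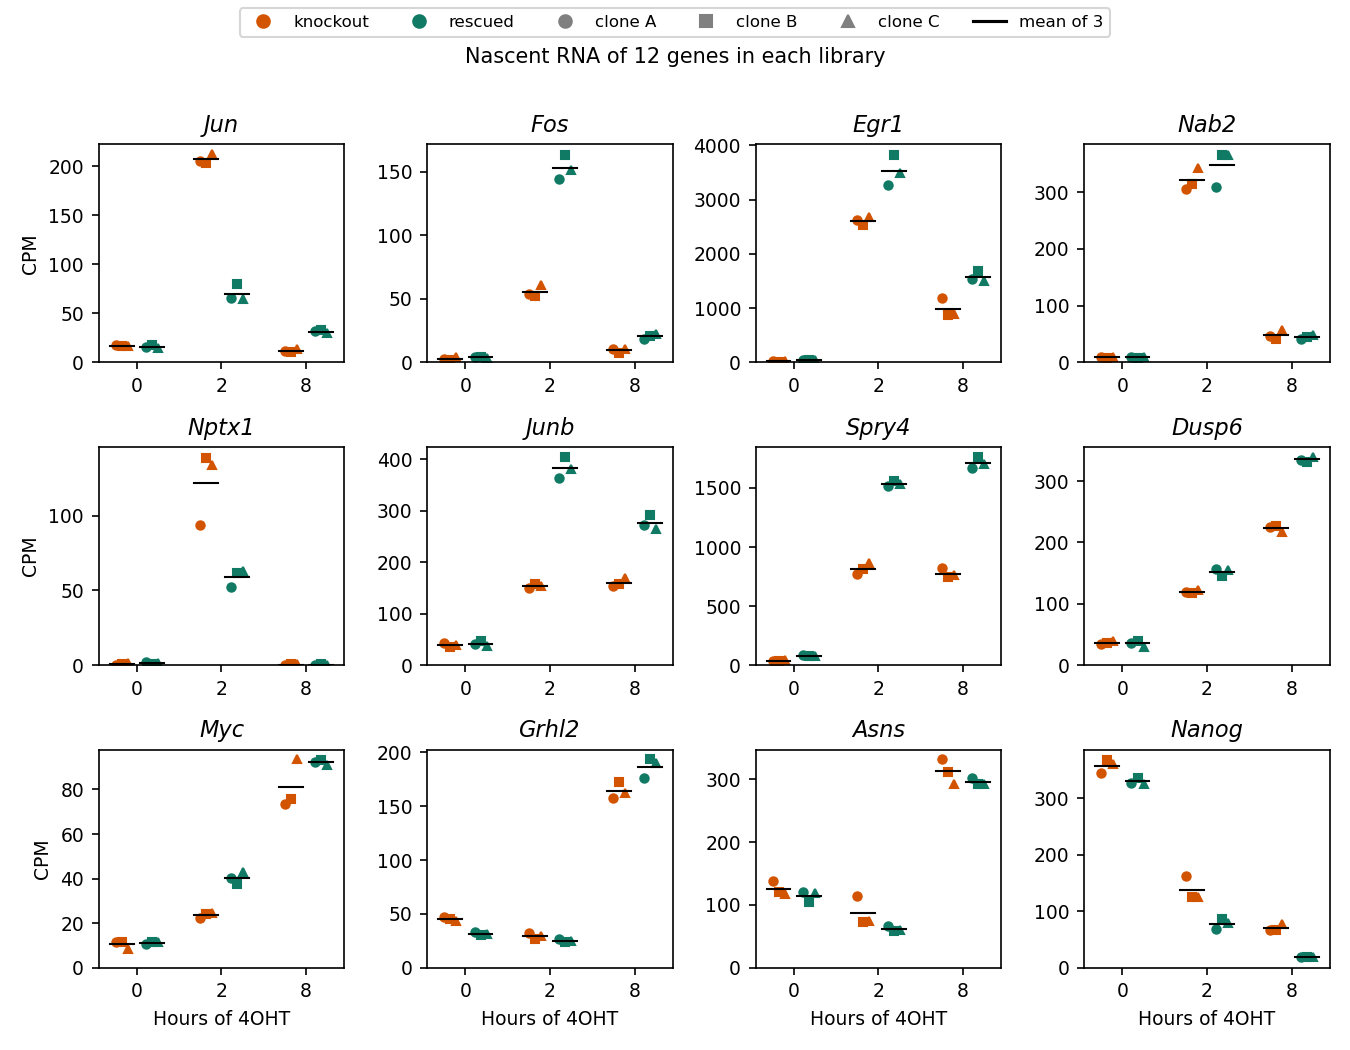
CPM of 12 genes in each library against hours of 4OHT, knockout in orange and rescued in green, with marker shapes for clones and a bar at the mean of 3. Jun, Fos, Egr1, Nab2 and Nptx1 peak at 2 h, the knockout libraries of Junb and Spry4 overlap between 2 h and 8 h, and Dusp6, Myc, Grhl2 and Asns are highest at 8 h in knockout cells.

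Negative regulators of the pathway were divided. Of 11 MAP kinase phosphatases 6 fell and 3 rose (median -0.33), and of 15 tested Sprouty family and other feedback genes 5 fell and 5 rose (median -0.07). The background was 29.3% higher and 27.7% lower among all tested genes. Dusp14 (40.5, 48.5 and 43.6 CPM at 2 h and 6.75, 8.65 and 7.96 CPM at 8 h) fell by 2.54 ± 0.12 and Dusp2, a nuclear phosphatase gene, fell by 2.17 ± 0.21 on the log2 scale. Dusp16 fell by 1.39, Dusp8 by 1.25, Dusp1 by 0.74 and Dusp5 by 0.26. Dusp6, whose product is a cytoplasmic phosphatase selective for ERK, had 120, 118 and 122 CPM at 2 h and 225, 226 and 218 CPM at 8 h (0.90 ± 0.058, adjusted p = 1.01e-18). Dusp4, which encodes a nuclear ERK phosphatase, rose in parallel from 136 to 266 CPM (0.97 ± 0.056). For both, every 8 h library lay above every 2 h library.

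Spry4, which encodes an inhibitor of RAS to RAF signalling, stood far above its 0 h level at both times. It had 772, 813 and 865 CPM at 2 h and 819, 744 and 763 CPM at 8 h, beside a 0 h mean of 37.5 CPM. The change of -0.07 ± 0.058 did not pass the test (adjusted p = 0.28), and the libraries overlapped. Spry1 (1.10), Phlda1 (0.75), Il17rd (0.45), Spry2 (0.42) and Spred1 (0.36) rose, and Nf1, a RAS GTPase-activating gene, fell by 0.74 and Errfi1, an inhibitor of the EGF receptor, by 0.39. Spred3 was lower by 0.30 (adjusted p = 0.0162), but its libraries overlapped.

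Of 19 genes of the RAS to ERK cascade 10 fell and 4 rose, and of 18 ETS factor genes, which act below ERK, 9 fell and 4 rose. Braf, a RAF kinase gene, had 450, 481 and 429 CPM at 2 h and 221, 210 and 218 CPM at 8 h, and fell by 1.07 ± 0.052. Rps6ka3, which encodes the ERK-activated kinase RSK2, fell by 2.18 from 159 to 35.0 CPM, while its relative Rps6ka2 rose by 1.36 from 30.7 to 77.8 CPM. Among ETS factors Erf, a repressor that ERK exports from the nucleus, fell by 1.73 from 235 to 70.7 CPM, and Elf1 by 1.54. Etv4 rose by 0.98 from 62.1 to 123 CPM and Elk3 by 1.25.

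Genes of serum response factor (SRF) and the actin cytoskeleton fell in 14 of 21 and rose in 1, with a median of -0.53. SRF binds the CArG box, and with actin-sensing cofactors or ETS partners it serves both immediate early and cytoskeletal genes. Srf itself had 50.2, 53.7 and 51.6 CPM at 2 h and 24.3, 30.8 and 35.2 CPM at 8 h (-0.83 ± 0.097, adjusted p = 3.43e-10). Vcl, which encodes vinculin, fell by 0.80 ± 0.062 from 134 to 77.3 CPM, and Tpm4, a tropomyosin gene, by 0.69. Actg1, a cytoplasmic actin gene named after its values were seen, had 286, 236 and 250 CPM at 2 h and 91.2, 140 and 189 CPM at 8 h (-0.92 ± 0.18, adjusted p = 0.000785). With only these 6 libraries in the fit Actg1 was not called. The exception was Fhl2, which encodes a LIM-domain cofactor, with 13.3, 10.9 and 12.4 CPM at 2 h and 34.0, 29.96 and 33.8 CPM at 8 h (1.43 ± 0.11). The summed level of the list was 4018, 3374 and 3550 CPM at 2 h and 2471, 3435 and 4163 CPM at 8 h, so that clones B and C, where the 13 abundant genes took a larger share, were not below the 2 h range. The median log2 change of the list was -0.52 without clone B at 8 h and -0.62 without clone C at 8 h. It was -0.58 without the 3 libraries of high abundant-gene share, which leaves clone A alone at 8 h. The part of clones B and C in the summed levels was not tested.

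Promoter windows of the CArG-bearing members are shown to set the shared element beside genes that moved in opposite directions. A CArG box (CC, then 6 bases of A or T, then GG, on either strand) was found in 8 of 19 RefSeq windows of this list (42.1%), in 6 of 27 of the immediate early list (22.2%, of which 4 belong to Egr2, 3 of them overlapping at the same site), and in 1.32% of the 13827 windows of tested genes and 1.63% of all 32851 windows. The list was drawn up as genes of SRF and the actin cytoskeleton, and SRF also serves immediate early genes. These shares are therefore given as a description only. Each window runs from 250 bases before to 50 after a start site. In the stretches below, from GRCm38.p6, capitals mark the match. They lie before the start site on the gene's own strand: Srf chr17:46556185-46556274 (minus), Egr2 chr10:67537767-67537836 (plus), Zfp36 chr7:28379247-28379316 (minus), Actg1 chr11:120348546-120348615 (minus) and Fhl2 chr1:43163962-43164022 (minus).
Srf: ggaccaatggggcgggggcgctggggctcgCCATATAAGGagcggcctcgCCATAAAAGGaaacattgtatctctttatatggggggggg
Egr2: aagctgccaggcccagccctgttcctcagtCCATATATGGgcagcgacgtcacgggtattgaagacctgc
Zfp36: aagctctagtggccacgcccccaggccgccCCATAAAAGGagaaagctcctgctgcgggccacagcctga
Actg1: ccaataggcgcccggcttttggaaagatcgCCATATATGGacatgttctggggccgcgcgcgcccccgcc
Fhl2: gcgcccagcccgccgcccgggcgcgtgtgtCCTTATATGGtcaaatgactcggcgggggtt
By gene, 7 of 18 of the SRF list with a window and 3 of 21 of the immediate early list held a match. The Srf stretch held 2 matches and each of the others 1. Of 7 genes of the SRF list with a match, 5 fell and 1, Fhl2, rose, with a median log2 change of -0.80, and of 11 without one in their windows 7 fell and none rose, with a median of -0.33. Zfp36, an mRNA decay factor gene of the immediate early list, fell by 0.67 ± 0.089. A match is a run of letters and was not tested as a binding site.

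Genes of naive pluripotency were split evenly, while formative genes mostly rose. Of 22 naive genes 9 rose and 9 fell (40.9% each, median 0.00), against 29.3% and 27.7% of all tested genes. Nanog (chromosome 6, 122707489 to 122714633) had 163, 125 and 125 CPM at 2 h and 66.9, 67.2 and 77.8 CPM at 8 h, and fell by 0.97 ± 0.095 (adjusted p = 3.13e-08) after 358 CPM at 0 h. Klf4, a Krüppel-like reprogramming factor gene that stood at 99.1 CPM at 0 h, had 113, 126 and 129 CPM at 2 h and 24.3, 26.5 and 21.8 CPM at 8 h (-2.34 ± 0.13, adjusted p = 4.45e-11). Socs3, the feedback inhibitor of LIF signalling, fell by 1.52 from 150 to 53.6 CPM. Tbx3, Fgf4, Spp1 and Zfp42 fell by 0.42, 0.46, 0.51 and 0.30.

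Several naive genes were higher at 8 h than at 2 h. Tdh, the threonine dehydrogenase gene of mouse stem cells, rose by 1.41 ± 0.086 from 55.5 to 146 CPM, above its 94.1 CPM at 0 h. Nr0b1 rose by 1.15, Tet2 by 0.67, Dppa4 by 0.55, Klf5 by 0.48, Nr5a2 by 0.41 and Esrrb by 0.37. Esrrb, an orphan receptor gene, stood at 500 CPM at 0 h, 216 CPM at 2 h and 278 CPM at 8 h. Gbx2 rose from 0.956 to 5.00 CPM (2.39 ± 0.31). Klf2 was higher by 0.41 (adjusted p = 0.0369) and Prdm14 lower by 0.53 (adjusted p = 0.023), and both calls were lost when single libraries were left out, Klf2 without clone B or C at either time and Prdm14 without clone A at either time or clone C at 2 h. Tfcp2l1, lower by 0.13, was not called under most alternatives.

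Of 12 genes of the core pluripotency network 7 rose and 2 fell (median 0.34). The median was 0.21 without clone C at 8 h, and 0.10 with 5 rises without the 3 libraries of high abundant-gene share. Sall4, which encodes a zinc finger factor, had 217, 187 and 201 CPM at 2 h and 327, 366 and 399 CPM at 8 h, without overlap, and rose by 0.85, Sox2 by 0.62 and Tdgf1, a Nodal co-receptor gene, by 0.55. Pou5f1 rose by 0.39 to 332 CPM, a call that was lost without the 3 libraries of high abundant-gene share. Trim71, an RNA-binding ubiquitin ligase gene, fell by 1.35 ± 0.050 from 2306 to 905 CPM. The stem cell markers Zfp42 and Lin28a were detected in all 6 libraries, at 578 to 773 CPM and 102 to 166 CPM.

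Formative and primed epiblast genes rose in 11 and fell in 4 of 17, with a median of 0.78, or 0.43 without the 3 libraries of high abundant-gene share. Grhl2, which encodes a pioneer factor of the epithelial programme (chromosome 15, 37233036 to 37363569), had 32.4, 26.8 and 29.1 CPM at 2 h and 158, 173 and 162 CPM at 8 h (2.48 ± 0.070, adjusted p = 3.77e-33). Sox4 rose by 1.93 to 202 CPM, Tcf15 by 1.39, Cdh2 (N-cadherin) by 1.16, Lef1 by 0.78, Otx2 by 0.77 and Foxd3 by 0.54. Zic2, a zinc finger gene, fell by 2.87 ± 0.12, from 53.7, 64.5 and 63.4 CPM to 8.57, 9.65 and 6.29 CPM, and Zic5 fell by 1.15. Pou3f1 was induced at 2 h and kept, at 1.17 CPM at 0 h, 9.25 CPM at 2 h and 9.87 CPM at 8 h. Krt18 was higher by 0.81 (adjusted p = 0.0139), a call that ended without clone B at 2 h or with only these 6 libraries in the fit. Dkk1, a Wnt inhibitor gene, had 30 counts at 2 h and 1 at 8 h, a ratio of 25.7-fold (exact 95% counting interval 4.28 to 1049). The markers Fgf5 and Cer1 had at most 12 and 2 counts in any library and were not tested.

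Transcripts of DNA methylation genes moved in both directions. Dnmt3a, a de novo methyltransferase gene (chromosome 12, 3806007 to 3914443), had 183, 202 and 192 CPM at 2 h and 53.01, 59.1 and 73.2 CPM at 8 h (-1.67 ± 0.072, adjusted p = 3.01e-22). Dnmt3b, the other de novo enzyme gene (chromosome 2, 153649450 to 153687730), had 69.8, 54.7 and 57.6 CPM at 2 h and 177, 196 and 215 CPM at 8 h (1.69 ± 0.081, adjusted p = 2.98e-16). The 2 genes moved in opposite directions by similar sizes, and neither had overlapping libraries. Tet1, which encodes a demethylating dioxygenase, rose by 1.40 ± 0.058 from 214 to 564 CPM after 665 CPM at 0 h. Of 11 genes of this list 5 rose and 5 fell (45.45% each, median -0.05), against 29.3% and 27.7% of all tested genes.

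Genes that mark other cell types were looked at in the same libraries. Of 12 trophectoderm genes 6 rose and 1 fell (median 0.62, or 0.37 with 4 rises without the 3 libraries of high abundant-gene share). Tead4, a Hippo pathway factor gene (chromosome 6, 128224288 to 128300823), had 70.2, 86.7 and 89.8 CPM at 2 h and 339, 368 and 364 CPM at 8 h (2.11 ± 0.060, adjusted p = 8.26e-33), and Tfap2c rose by 1.74 from 28.0 to 94.2 CPM. Cdx2, a defining factor of this lineage, was between 1.26 and 1.83 CPM at 8 h. The summed level of the list was 168 to 184 CPM at 2 h and 491 to 552 CPM at 8 h. Tead4 and Tfap2c made up most of that rise, so the sum says little about the other members. Of 14 primitive endoderm genes 4 fell and 1 rose, a share of falls near the 27.7% of all tested genes, and the median was -0.07. Gata4, a defining factor, was at 11.0 CPM at 2 h and 6.92 CPM at 8 h, a call that was lost without the 3 libraries of high abundant-gene share, and Sparc and Lamb1 fell by 0.95 and 0.63. Sox7, Foxa2 and Hnf4a, further endoderm factors, had at most 10, 11 and 8 counts in any library.

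Of 10 tested neural genes 7 fell and 2 rose, and 8 members had too few counts. Their median, -1.0, was -2.11 without clone A at 8 h, -1.53 without clone C at 8 h and -0.37 with only these 6 libraries in the fit. Sox1 went from 6.76 to 0.284 CPM, Dll1, a Notch ligand gene, from 5.86 to 0.963 CPM and Hes1, a Notch target, from 41.7 to 9.65 CPM. The summed level of neural genes was 267 to 326 CPM at 2 h and 120 to 134 CPM at 8 h. Nptx1, named above among the largest falls, belongs to this list and made up most of that drop. Fibroblast genes summed to 78.8, 91.4 and 94.7 CPM at 2 h and 48.7, 74.4 and 96.8 CPM at 8 h, with 6 of 12 members tested. Of the fibroblast genes Col1a1 fell by 2.89 and Thy1 rose, from 3 counts to 100 over the 3 libraries (38.9-fold, exact 95% counting interval 12.9 to 192). The part of such cells in any change was not tested.

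Among ligands, Bmp4 (chromosome 14, 46383520 to 46390669), which encodes a bone morphogenetic protein, had 11.4, 14.9 and 14.02 CPM at 2 h and 100.9, 86.2 and 99.6 CPM at 8 h (2.82 ± 0.096, adjusted p = 1.02e-29). Id1, a direct target of BMP signalling, rose by 2.20 ± 0.080 from 20.7 to 96.5 CPM, while Id4 fell by 2.85 and Skil, a SMAD corepressor gene, by 1.00. Nodal fell by 1.06 from 105 to 49.5 CPM. Of 21 BMP and Nodal pathway genes 10 fell (47.6%) and 4 rose (19.0%), against 27.7% and 29.3% of all tested genes. Pdgfa fell by 1.39, Fgf8 went from 6.51 to 0.289 CPM, and the receptor genes Kdr and Fgfr4 rose by 4.02 and 3.0 to 8.91 and 11.1 CPM. Retinoic acid receptor genes also parted, with Rarg up by 1.18 to 161 CPM, and Rara and Rxra down by 0.57 and 0.82.

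**Figure D3:**
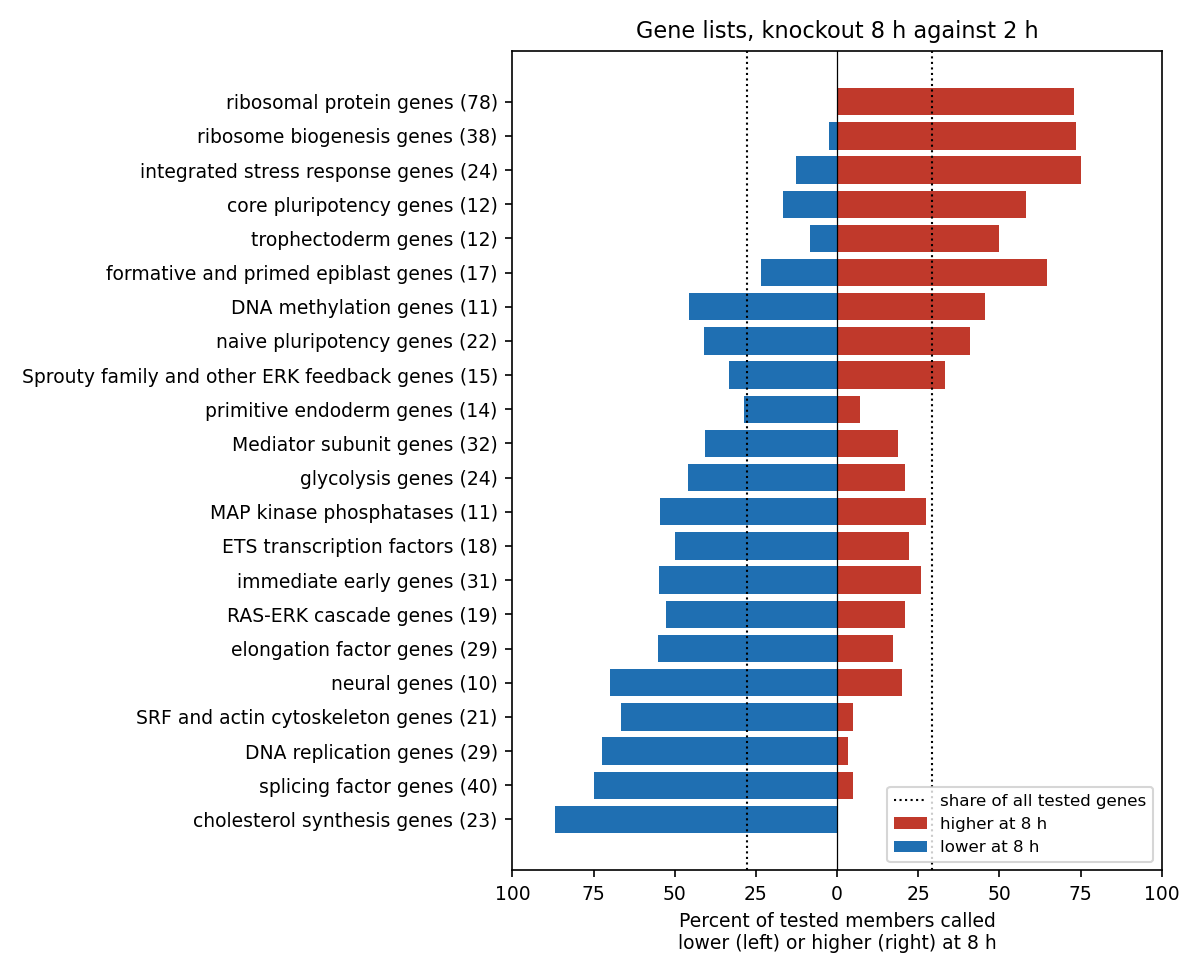
Percent of the tested members of 22 gene lists called higher (red, right) or lower (blue, left) in knockout cells at 8 h against 2 h, with the number tested in brackets and dotted lines at the shares of all tested genes, 29.3% and 27.7%. Cholesterol synthesis, splicing factor and DNA replication genes reach furthest left, and integrated stress response, ribosome biogenesis and ribosomal protein genes furthest right.

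Cholesterol synthesis genes fell in 20 of 23 and rose in none, with a median of -0.65. Cyp51, which encodes the lanosterol demethylase (chromosome 5, 4081145 to 4104746), had 93.4, 116 and 112 CPM at 2 h and 42.9, 49.6 and 54.5 CPM at 8 h (-1.16 ± 0.082, adjusted p = 1.5e-15). Idi1, the isomerase gene of the isoprenoid steps, fell by 1.10 ± 0.10 and Fdft1, the squalene synthase gene, by 0.86. The list summed to 2194, 2431 and 2467 CPM at 2 h and to 1201, 1395 and 1510 CPM at 8 h, without overlap.

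Genes of the integrated stress response, the programme through which ATF4 answers a shortage of amino acids and other stress, rose in 18 of 24 and fell in 3, with a median of 0.88. Most members below are named after their values were seen. Asns, which encodes asparagine synthetase (chromosome 6, 7675169 to 7693254), had 114, 72.9 and 73.8 CPM at 2 h and 333, 311 and 293 CPM at 8 h (1.87 ± 0.14, adjusted p = 4.33e-08), with 125 CPM at 0 h. Genes of serine and one-carbon synthesis rose beside it: Psat1 by 1.42, Mthfd2 by 1.38, Phgdh by 1.23, Shmt2 by 1.00 and Psph by 0.72. Of tRNA synthetase genes Sars rose by 1.28, Gars by 0.96, Nars by 0.80 and Aars by 0.39, while Wars was at 0.02 (adjusted p = 0.851). Amino acid transporter genes Slc7a11, Slc3a2 and Slc7a3 rose by 1.39, 0.71 and 0.54. Chac1, which encodes a glutathione-degrading enzyme, had 3.82, 1.18 and 0.329 CPM at 2 h and 17.4, 11.5 and 10.7 CPM at 8 h (3.11 ± 0.36), and without clone A at 2 h its change was 4.19. Trib3 rose by 2.30 and Nupr1 by 3.41, the latter from 0.453 to 4.51 CPM.

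Transcripts of the factors themselves did not rise to the same degree. Atf4 was higher by 0.14 ± 0.060 (adjusted p = 0.0435), from 113 to 125 CPM, and lost its call under 11 of 14 alternatives. Ddit3, which encodes CHOP, fell by 1.23 ± 0.14, from 30.5, 32.2 and 34.0 CPM to 17.7, 11.7 and 9.64 CPM. Cebpb fell by 1.68 from 7.96 to 2.52 CPM, Cebpg was at -0.02 (adjusted p = 0.902) and Ddit4 fell by 0.51.

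The element TGATGNAA, known from amino acid response elements bound by ATF4 with C/EBP partners, was searched on both strands after these values were seen. It was in 8 of 23 windows of this list (34.8%), in 2.32% of the windows of tested genes and in 3.97% of all windows. All 8 genes with a match rose (median 1.64), and of the 13 with windows but no match 8 rose and 3 fell (median 0.71). The list was drawn up as genes of the ATF4 programme, so these shares are given as a description only. The stretches below show it in members of different function, with capitals at the match, on the gene's own strand and before the start site in GRCm38.p6. They are Asns chr6:7693210-7693262 (minus), Chac1 chr2:119351019-119351086 (plus), Slc7a11 chr3:50443623-50443709 (minus), Nupr1 chr7:126625543-126625610 (minus) and Gars chr6:55037941-55038000 (plus).
Asns: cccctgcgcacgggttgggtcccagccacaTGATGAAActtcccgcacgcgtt
Chac1: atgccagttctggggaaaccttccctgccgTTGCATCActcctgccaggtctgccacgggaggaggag
Slc7a11: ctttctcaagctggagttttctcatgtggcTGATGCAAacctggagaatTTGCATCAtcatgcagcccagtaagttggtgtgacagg
Nupr1: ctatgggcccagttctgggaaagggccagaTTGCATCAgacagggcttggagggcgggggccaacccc
Gars: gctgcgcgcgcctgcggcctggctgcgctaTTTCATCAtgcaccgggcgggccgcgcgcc
Asns held 1 match on its own strand, Chac1, Nupr1 and Gars held 1 each on the opposite strand and Slc7a11 held 1 on each. The letters were not tested as bound sites.

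**Figure D4:**
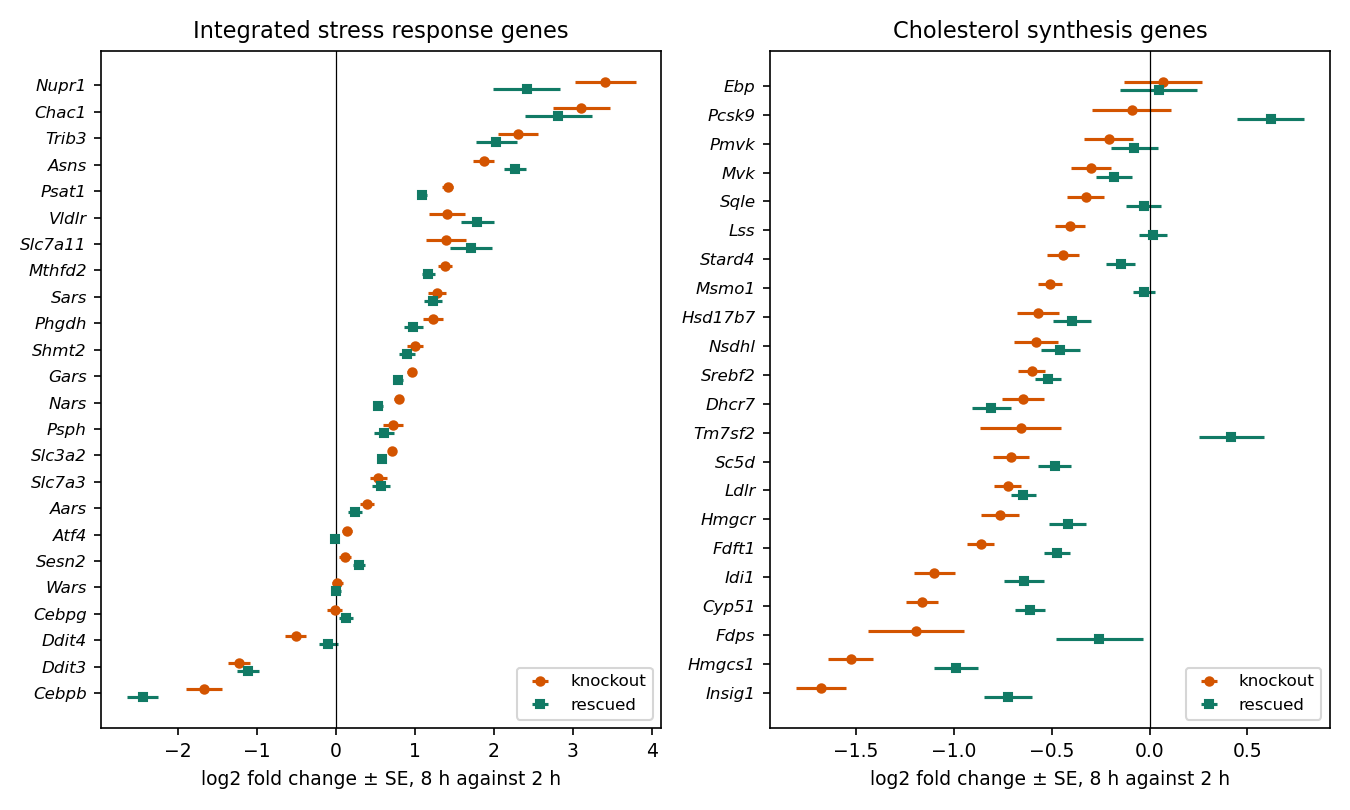
Log2 fold change with standard error, 8 h against 2 h, of tested members of the integrated stress response list (left) and the cholesterol synthesis list (right), in knockout (orange circles) and rescued cells (green squares). Stress response members lie mostly right of 0 in both genotypes, and most cholesterol members lie further left in knockout than in rescued cells.

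Genes of the machinery for growth and gene expression moved by smaller amounts. Ribosome biogenesis genes rose in 28 of 38 and fell in 1 (median 0.30), with Polr1b, a subunit gene of RNA polymerase I, up by 0.64 and Gnl3, which encodes nucleostemin, by 0.44. With libraries scaled by total count alone 12 of them rose. Ribosomal protein genes rose in 57 of 78 and fell in none (median 0.28, or 0.17 without clone C at 8 h), but in 11 with total count scaling and in 17 without the 3 libraries of high abundant-gene share. Their summed level at 8 h was 15650 CPM in clone A, 17820 CPM in clone B and 19850 CPM in clone C, against 14370 to 15140 CPM at 2 h. Many have near-identical copies, so single values are uncertain.

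DNA replication genes fell in 21 of 29 and rose in 1 (median -0.37). Cdc45, a helicase subunit gene, had 88.7, 93.7 and 95.7 CPM at 2 h and 57.1, 58.4 and 53.9 CPM at 8 h, and Mcm5, a subunit of the same helicase, fell by 0.50 from 390 to 276 CPM. Splicing factor genes fell in 30 of 40 and rose in 2 (median -0.28), with Clk4, a kinase of splicing factors, lower by 0.92 and Rbm39 by 0.56. Genes of transcription elongation fell in 16 of 29 and rose in 5, among them Brd2, a bromodomain reader gene, from 1477 to 563 CPM (-1.39 ± 0.058). The super elongation complex gene Aff4 fell by 0.88, while its relatives Aff1 and Aff3 rose by 0.97 and 1.95.

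Mediator's own subunit genes fell in 13 of 32 (40.6%) and rose in 6 (18.8%), with a median of -0.03, and with total count scaling 6 fell. Among all tested genes 27.7% fell and 29.3% rose. Med13, the subunit that joins the kinase module to the core, had 345, 366 and 345 CPM at 2 h and 166, 160 and 154 CPM at 8 h (-1.14 ± 0.051, adjusted p = 7.59e-25). Cdk19, the paralogue of Cdk8 in that module, fell by 1.05 ± 0.066 from 182 to 86.8 CPM, whereas Med13l rose by 0.40 and Med27 fell by 0.52. Cdk8 belongs to the 13 abundant genes, at 45260 to 152400 CPM, and its change of 0.52 ± 0.36 did not pass the test (adjusted p = 0.236).

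Long genes were called lower more often than short ones. Over the 13984 tested genes with a position in GENCODE release 21 of the mouse, cut into 5 equal groups by length, 17.5% of the shortest group (up to 8.75 kb) fell and 32.6% of the longest (from 80.02 kb), while 28.0% and 29.9% rose. The median log2 change was 0.11 in the shortest group and -0.02 in the longest, and in rescued cells 0.10 and -0.05. This is a description across genes, which are not independent, and the count levels of the groups were not matched.

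The libraries at 2 h and 8 h were also set against those at 0 h. These comparisons share libraries with the step above, so their values are given side by side only. Between 0 h and 2 h 66.6% of genes were called, 31.4% higher and 35.2% lower, and between 0 h and 8 h 57.7%, 28.0% higher and 29.7% lower. Immediate early genes were higher in 25 of 31 at 2 h and in 22 at 8 h, and lower in 3 and 5, so most stayed above 0 h although 17 had fallen since 2 h. Egr1 was above 0 h by 7.31 ± 0.13 at 2 h and 5.91 ± 0.13 at 8 h on the log2 scale, Nab1 by 5.27 and 2.69 and Fos by 4.33 and 1.80. Jun was among the 5 that were lower than 0 h at 8 h, after a rise of 3.59 ± 0.078 at 2 h (-0.54 ± 0.12, adjusted p = 0.000147).

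Naive genes were lower than at 0 h in 13 of 22 at 2 h and in 12 at 8 h, with Nanog at -1.38 and -2.35, Fgf4 at -2.33 and -2.78, and Esrrb at -1.21 and -0.85. Formative genes were higher in 10 of 17 and then in 12, while Grhl2 (-0.63 and 1.85) and Dnmt3b (-0.67 and 1.02) were below 0 h before they were above it. Of the 23 genes of cholesterol synthesis, 18 were above 0 h at 2 h, and at 8 h 6 were above and 5 below it. Cyp51 had risen by 1.24 ± 0.079 at 2 h and was at 0.08 ± 0.089 at 8 h (adjusted p = 0.454). Stress response genes were higher in 11 of 24 at 2 h and in 22 at 8 h, with Asns at -0.54 and 1.32. Splicing factor genes were higher in 38 of 40 at 2 h and in 33 at 8 h, so that their later falls left most of them above 0 h. DNA replication genes, in contrast, were higher in 17 of 29 at 2 h and lower in 14 at 8 h.

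The same step was then set beside that of rescued cells, which share no library with it. In rescued cells 8593 genes changed (60.8%), of which 4335 rose (30.7%) and 4258 fell (30.1%), or 4002 and 2523 with total count scaling. Both genotypes had 3231 rises in common, 78.1% of those in knockout and 74.5% of those in rescued cells, and 3259 falls, 83.2% and 76.5%. Across genes the log2 changes had a Pearson r of 0.85 and a Spearman rho of 0.81, given as a description only. The difference of the steps, knockout minus rescued, was above 0 in 631 genes (4.47%) and below 0 in 679 (4.81%), 1310 in all (9.27%). With total count scaling the split of these calls was 82 above and 302 below. Of the genes called in both steps 103 changed in opposite directions, 53 of them higher in knockout and lower in rescued cells.

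**Figure D5:**
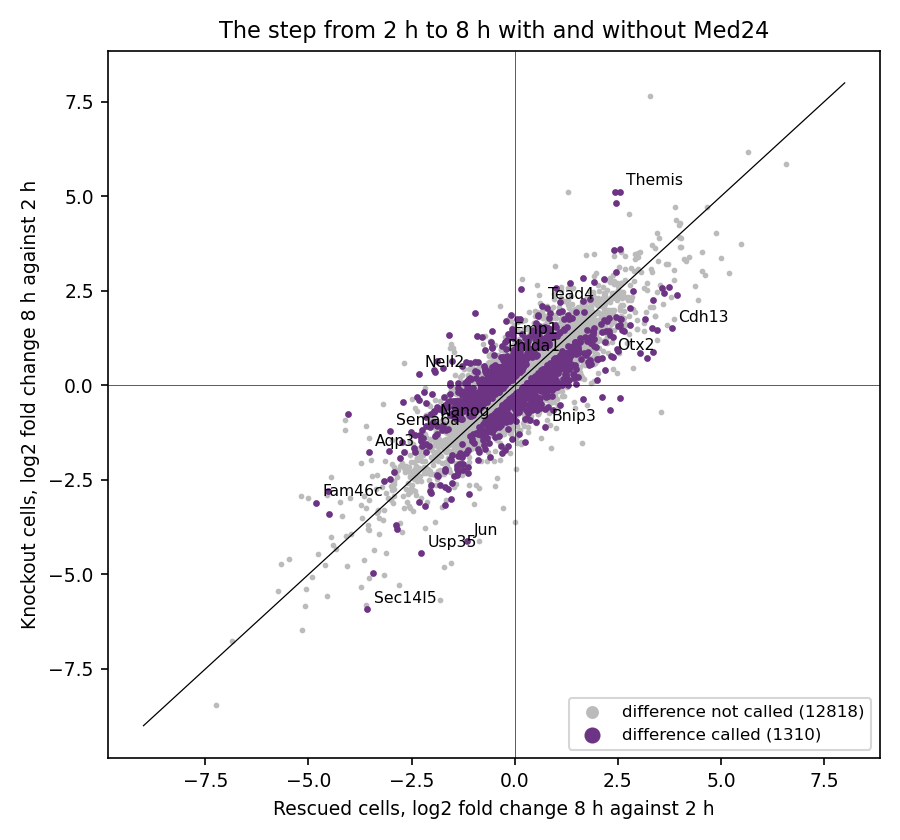
Log2 fold change, 8 h against 2 h, in knockout cells (vertical) against rescued cells (horizontal) for 14128 genes, with a line of equal change. Purple points are the 1310 genes whose difference between the steps was called, among them Jun and Usp35 below the line and Nell2, Tead4 and Themis above it.

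Jun showed the largest difference below 0 among genes of at least 5 CPM. Its fall of 4.13 on the log2 scale in knockout cells stood beside a fall of 1.15 in rescued cells, where its means were 69.7 CPM at 2 h and 31.3 CPM at 8 h (difference -2.98 ± 0.12, adjusted p = 2.27e-24). The means in knockout cells, 207 and 12.04 CPM, lay above that at 2 h and below it at 8 h. Usp35, a deubiquitinase gene (chromosome 7, 97309380 to 97332020), had 188, 208 and 212 CPM at 2 h and 7.86, 10.3 and 11.1 CPM at 8 h, a fall of 4.43 against 2.27 in rescued cells (difference -2.16 ± 0.16). Sec14l5 (-2.35) and Iqsec3 (-1.51) also fell further in knockout cells.

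Other genes rose less without Med24. Cdh13, a cadherin gene (chromosome 8, 118283733 to 119324921), had 7.94, 7.20 and 8.22 CPM at 2 h and 20.2, 23.5 and 23.9 CPM at 8 h, a rise of 1.51 against 3.80 in rescued cells (difference -2.30 ± 0.17, adjusted p = 7.52e-15). Otx2, a primed epiblast factor gene, rose by 0.77 against 2.34 (difference -1.58 ± 0.17), and Cdh2 by 1.16 against 2.18. Slc25a24 and Cntfr, which encode a mitochondrial carrier and a cytokine receptor, had differences of -1.62 and -1.58. Bnip3, a mitophagy gene induced by hypoxia, changed direction: it went from 45.5, 49.95 and 46.9 CPM to 18.5, 24.5 and 24.7 CPM in knockout cells (-1.11 ± 0.098) and rose by 0.74 in rescued cells (difference -1.85 ± 0.14, adjusted p = 1.81e-14).

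Bnip3 belongs to the list of glycolysis and hypoxia genes, of which 11 of 24 members fell and 5 rose in knockout cells, while 4 fell and 14 rose in rescued cells. The difference of the steps was called below 0 in 10 of the 24 and above 0 in none, against 4.81% of all genes below 0. Pfkp, a phosphofructokinase gene, fell by 0.71 in knockout and by 0.38 in rescued cells, and Pdk1, which encodes a pyruvate dehydrogenase kinase, rose by 0.65 and 1.06. The summed level in knockout cells was 6587, 6479 and 6522 CPM at 2 h and 4517, 5565 and 6191 CPM at 8 h. It was lowest in clone A, where the 13 abundant genes held 18.2% of the counts, and without the 3 libraries of high share 17 members fell. Of the cholesterol list, 8 of 23 members had a called difference below 0 and none above it. Cyp51 fell by 1.16 in knockout and 0.61 in rescued cells (difference -0.55 ± 0.11, adjusted p = 0.000685).

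Among differences above 0, some genes fell in rescued but not in knockout cells. Nell2, a secreted neural protein gene (chromosome 15, 95075230 to 95528559), had 9.31, 9.45 and 8.87 CPM at 2 h and 12.4, 10.7 and 10.7 CPM at 8 h in knockout cells and fell by 2.33 in rescued cells (difference 2.64 ± 0.20, adjusted p = 1.69e-14). Ccnd2, a G1 cyclin gene, was at -0.30 in knockout cells (adjusted p = 0.139) and fell by 2.37 in rescued cells (difference 2.08 ± 0.27). Nanog fell by 0.97 against 1.98 and Tbx3 by 0.42 against 1.37 (differences 1.01 ± 0.15 and 0.95 ± 0.11). Sema6a (1.81), Aqp3 (1.78), Acan (1.74) and Fam46c (1.71) fell less in knockout cells. The difference of Lefty2, 2.21 ± 0.62 (adjusted p = 0.0435), was not called under 13 of 20 alternatives, among them every one that left out a single library except clone A at 2 h in knockout cells.

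Other genes rose more in knockout cells, or rose there and fell in rescued cells. Tead4 rose by 2.11 against 0.67 (difference 1.44 ± 0.080, adjusted p = 4.48e-19), and Id1 by 2.20 against 1.10. Emp1, a membrane protein gene, rose by 1.19 in knockout cells and fell by 0.18 in rescued cells (difference 1.37 ± 0.11), and Phlda1 rose by 0.75 and fell by 0.34. Of the immediate early list 9 of 31 differences were above 0 and 4 below. Junb, Ier2 and Fosl1 were among the 9: Junb was at 0.05 in knockout cells and fell by 0.47 in rescued cells (difference 0.53 ± 0.080), and Ier2 was at -0.04 and fell by 0.74. Of 15 tested Sprouty family and other feedback genes 3 differences were below 0, with Spry2 up by 0.42 against 0.94 and Il17rd by 0.45 against 0.88. In the same list 1 difference, that of Phlda1, was above 0. Among all tested genes 4.47% were above 0 and 4.81% below. Of the 24 stress response genes 2, Psat1 and Nars, differed, by 0.33 and 0.27.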

How the data were processed

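Captured nascent RNA of 18 libraries was analysed from the authors' deposited table of whole-number counts per gene symbol. STAR, featureCounts, DESeq and the build mm10 are named in the submitters' processing notes. For versions, annotation, strand and intron counting the sources used here give nothing, so overlapping or antisense genes cannot be told apart. All 13 mitochondrial protein-coding genes are at 0 in the table.

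Counts were filtered with filterByExpr, scaled by TMM and fitted as 6 group means over all 18 libraries with edgeR 4.0.16 (quasi-likelihood test, robust) in R 4.3.3, with Benjamini-Hochberg adjustment and a threshold of 0.05. The standard error is the log2 change divided by the square root of F. Levels are TMM-scaled CPM. The difference of steps is the contrast of both genotypes' 8 h against 2 h. Counts were simulated for all 18 libraries at their scaled sizes, from the mean levels of knockout cells at 2 h, and 13389 genes were tested. In the 8 h knockout group 50 genes each were changed by 1.5, 2, 4 and 8-fold. Of these 54%, 72%, 86% and 100% were recovered, and 5 unchanged genes were called. All other genes were left unchanged, while 57.0% were called in the real step. The raised share of the abundant genes was not simulated, so these rates need not hold for the real step.

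Named genes were the 12 highest and 12 lowest called changes with a mean of at least 5 CPM and no overlap, passing over predicted and clone-named genes, all members of the immediate early, phosphatase, Sprouty, naive and formative lists, up to 4 called members of smallest p from each other list, and the 8 highest and 8 lowest differences of steps. The members and the 40 lists were chosen with earlier results of these data known.

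Clone letters did not pair the 2 h and 8 h libraries in the data, and the check is given with the alternatives. These were other scalings (total count, RLE), no filter, the clone letter as a block, the abundant genes or 3 libraries left out, the libraries of the contrast alone, DESeq2 1.42.0 and each library left out. Positions are from GENCODE on GRCm38 and promoter windows from RefSeq on GRCm38.p6. Exact intervals cover counting error only. Some genes that the naming rule admits are not reported here.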

Additional observations from a re-analysis of the deposited data

Results flagged for a closer look

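Of the 274 genes chosen by rule or after their values were seen, 31 had a called difference between the step in knockout and that in rescued cells of over 1 on the log2 scale, 20 of them above 0 and 11 below. Among all 14128 tested genes 121 had a called difference of over 1 above 0, and 94 had one below. The test was the difference of the steps itself, in edgeR's quasi-likelihood fit. The 16 genes with the most extreme differences were chosen for them, so the count of 31 follows in part from that choice. Values are knockout minus rescued. Below 0 lay Jun (-2.98), Sec14l5 (-2.35), Cdh13 (-2.30), Usp35 (-2.16), Bnip3 (-1.85), Slc25a24 (-1.62), Cntfr (-1.58), Otx2 (-1.58), Gbx2 (-1.54), Iqsec3 (-1.51) and Cdh2 (-1.02). Above 0, genes with a peak at 2 h were Fosb (1.31), Acan (1.74), Fam46c (1.71) and Sema6a (1.81). Lineage and signalling genes above 0 were Nanog (1.01), Pdgfra (1.28), Lefty2 (2.21), Id1 (1.10), Tead4 (1.44), Ctgf (1.02), Phlda1 (1.09) and Ccnd2 (2.08). The others were Med24 itself (1.79), Nell2 (2.64), Themis (2.58), Thy1 (2.69), Plb1 (1.06), Ccdc3 (1.18), Emp1 (1.37) and Aqp3 (1.78). Thy1 rests on 3 counts at 2 h in knockout cells.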

How the results depend on the processing

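The count of genes called in the knockout step, 8057, was 5989 to 8147 under the other scalings, filters, fits and DESeq2, and 7339 to 7764 when a single library was left out. With libraries scaled by total count alone, 2619 genes rose in knockout cells, 2523 fell in rescued cells, and the difference of the steps was called in 384 genes, 82 above and 302 below 0, against 1310. It was called in 988 genes with DESeq2 and in 1037 to 1572 when a single library was left out. With total count scaling 6 Mediator genes fell, and 12 ribosome biogenesis, 11 ribosomal protein and 3 DNA methylation genes rose. Without the 3 libraries of high abundant-gene share, which leaves clone A alone at 8 h and assumes that it varies like the other groups, 2 primitive endoderm and 17 glycolysis genes fell and 17 ribosomal protein genes rose. Without clone C at 8 h 38 ribosomal protein genes rose. The cause of these shifts was not tested. Of the 274 genes run under these alternatives, none that was called in the main fit or in the alternative reversed its direction. Changes of sign in genes called in neither were not counted.

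With the clone letter as a replicate block 8007 genes were called in the knockout step, 7942 of them shared with the fit without it. Libraries of 2 h and 8 h with one letter had deviations correlated at -0.10 (A), 0.01 (B) and -0.003 (C), and 1 of 6 correlated best with its own letter. The abundant-gene share was high in clone A at 2 h but in clones B and C at 8 h, which enters these deviations. The check therefore cannot tell whether libraries with one letter came from the same clonal line.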
